A study of Mus musculus with 6 samples.

Results

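The genes described here serve the inflammatory activation of endothelial cells: the NF-κB subunits and their inhibitors, chemokines and cytokines, and the receptors with which endothelium holds leukocytes. They were chosen by name, as 41 genes of the 23420 gene symbols in the table of counts, and each of the 41 has a row there. By role they are 10 chemokine ligands, 8 cytokines and growth factors, 4 leukocyte adhesion receptors, 5 NF-κB subunits, 8 inhibitors and feedback genes, and 6 other receptors, kinases and enzymes. The cells were eEnd2 cells, an endothelial line from mouse embryos, that had been stably transfected with a chimera of human Integrin-β1A and eGFP, the tag lying in the extracellular part of the protein. The chimera was either wildtype (β1-WT-GFP) or carried K794Q, an exchange of lysine for glutamine in the cytoplasmic tail that mimics the acetylated lysine (β1-K794Q-GFP). In both groups SAP, a small fragment of the human β-actin promoter joined to a MAR element, drove expression, and the cells had been sorted for GFP into populations of low and of high signal; the labels do not tell from which population a culture was taken. All cultures were untreated and grew in DMEM with fetal calf serum and antibiotics. No cytokine or bacterial product is named as added, and what the serum brought was not measured. From each group 3 cultures, named A, B and C, were sequenced as total RNA after removal of ribosomal RNA. The methods call them different cultures of the sorted cells and do not say how long they had grown apart. The p values measure only the spread between these cultures. How many separate transfections were made per construct is not given. An effect of K794Q and a difference between separately transfected and sorted cells therefore cannot be told apart.

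NF-κB is a family of dimeric transcription factors that IκB proteins hold in the cytoplasm of resting cells. Receptors for TNF, interleukins and microbial products switch on the IKK kinases, IκB is degraded, and the freed dimers induce chemokines, selectins and adhesion receptors together with the genes of their own inhibitors, which close the response again. In endothelium this programme makes leukocytes roll, stop and cross the vessel wall.

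The libraries of cultures A, B and C held 10918600, 9589826 and 15287191 counts for β1-WT-GFP, and 10203916, 11197729 and 11071680 for β1-K794Q-GFP. Levels are given as normalized counts (CPM, the counts scaled to the library total after TMM normalization), with the values of a group always in the order of cultures A, B and C. The limit that 0 counts allow, taken as 3 counts, lay between 0.209 and 0.300 CPM, which covers counting error only. The groups were compared with edgeR's quasi-likelihood F-test, two-sided, fitted on the whole table, and the thresholds, those of the study, were a p no greater than 0.05 before adjustment together with a fold change of 2 or more. Adjusted p values are Benjamini-Hochberg values over all 11608 genes that passed edgeR's filter on low counts. Positions refer to GRCm38.

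Of 12 endothelial markers, 11 had more than 100 normalized counts in each culture. Vwf, the exception, stayed at or below 2.41. Their summed level was 8707, 9618 and 8915 for β1-WT-GFP and 7405, 14025 and 8015 for β1-K794Q-GFP, with Pecam1 or Cdh5 as the most abundant gene. Leukocyte markers were close to absent, with a summed level over 12 genes of 1.92, 1.30 and 11.4 for β1-WT-GFP and 1.73, 1.68 and 1.72 for β1-K794Q-GFP. Ptprc, the gene of the common leukocyte antigen CD45, had 0 counts in all cultures but β1-WT-GFP culture C, where it had 4. The most abundant of these markers was Csf1r, at 10.7 normalized counts in the same culture, and Tyrobp, Lyz2, Cd3e and Adgre1 had 0 counts throughout. Markers of fibroblasts and mural cells summed over 10 genes to 0.787, 1.20 and 29.2 for β1-WT-GFP and to 3.56, 3.75 and 2.58 for β1-K794Q-GFP. In β1-WT-GFP culture C most of that sum was Pdgfra at 16.4, with Col1a1 at 5.92, Col3a1 at 3.06, Pdgfrb at 2.30 and Acta2 at 1.18. There 5 of the 10 genes had at least 1 CPM, against at most 1 gene in any other culture. Dcn, Lum and Thy1 had 0 counts in all cultures. The 6 epithelial markers summed to at most 0.592. The part of these cells, if any were present, in the values of β1-WT-GFP culture C was not tested, and fewer cells of a type and less RNA per cell cannot be told apart in such libraries.

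Of the 41 genes, 31 passed the filter and were tested. Nfkbiz alone passed both thresholds. It was lower in β1-K794Q-GFP cells, which makes 1 of 31 genes past both thresholds against 5.19% of all tested genes, and 1 of 31 in the lower direction against 1.71%. Nfkbiz was also the single gene of the 31 with an adjusted p of at most 0.05, where 0.181% of all tested genes had one. An unadjusted p of at most 0.05 with a lower level was found in 4 of the 31 (Nfkbia, Nfkbiz, Tnip1 and Birc3), against 4.08% of all tested genes, and with a higher level in 0, against 6.08%. In 4 of the 31 (Nfkb1, Nfkbia, Nfkbiz and Tnip1) the cultures of the groups did not overlap, against 16.6% of all tested genes, and all 4 lay lower in β1-K794Q-GFP cells, a direction that 8.12% of all tested genes showed. These small sets were named after their values had been seen. The median log2 fold change was -0.45 over the 31 genes and -0.02 over all tested genes, and 21 of the 31 had a fitted value below 0 (67.7%, against 51.6% of all tested genes). By role the median was -0.91 in the 7 tested inhibitors and feedback genes, -0.55 in the 7 chemokine ligands, -0.35 in the 5 NF-κB subunits, -0.03 in the 4 adhesion receptors, 0.18 in the 6 other receptors, kinases and enzymes and 0.32 in the 2 tested cytokines and growth factors. The 4 genes with an unadjusted p of at most 0.05 were all inhibitors or feedback genes.

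**Figure D1:**
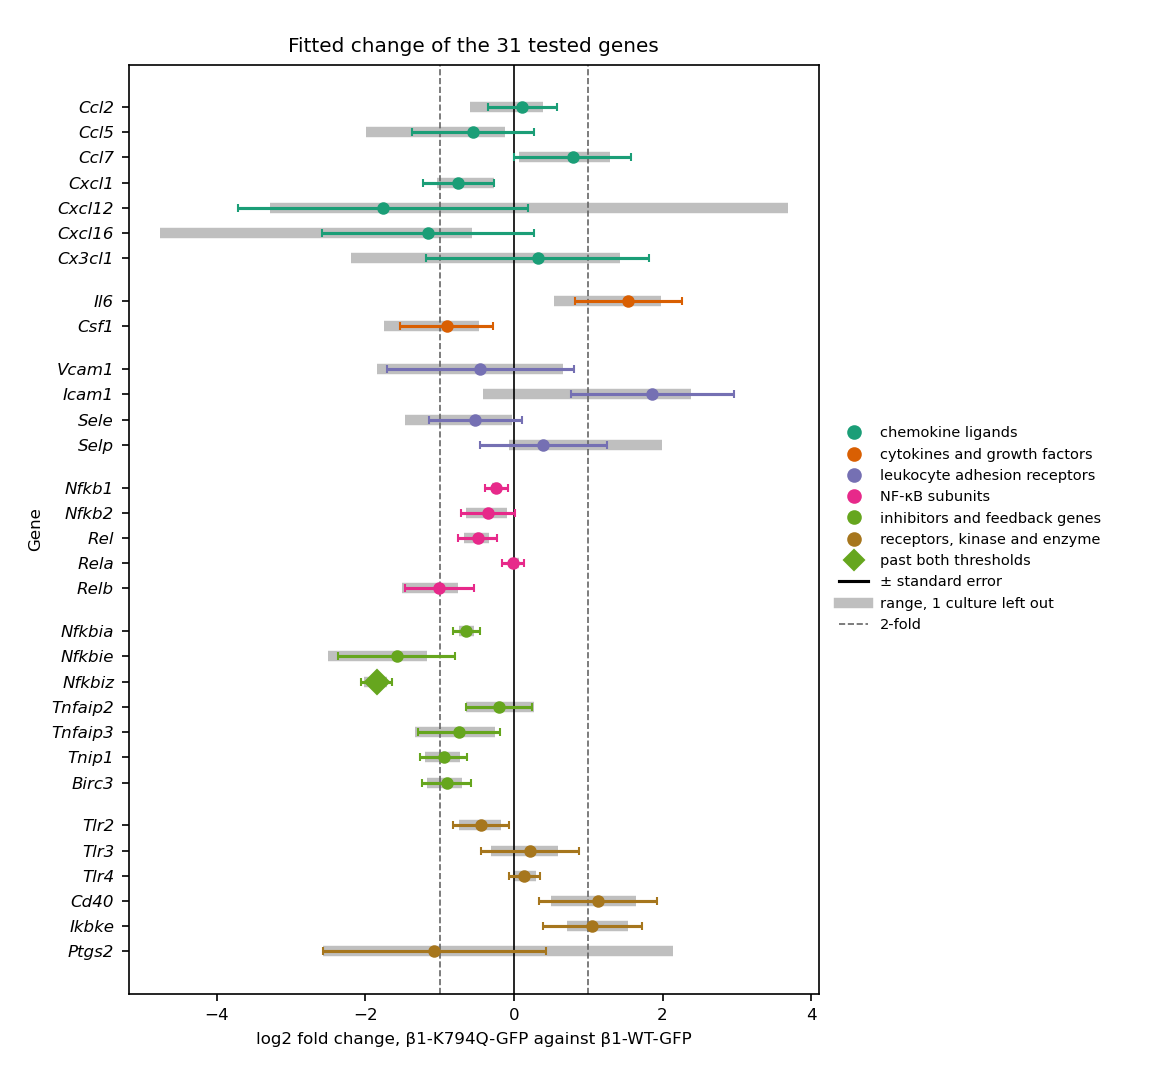
Fitted log2 fold change from β1-WT-GFP to β1-K794Q-GFP cells (horizontal axis) for the 31 tested genes by role, with standard errors; grey bars give the range when 1 of the 6 cultures was left out, and dashed lines mark 2-fold. Nfkbiz, drawn as a diamond, is past both thresholds, with a log2 fold change of -1.85, and its grey bar is among the short ones, while that of Cxcl12 runs from -3.29 to 3.68.

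Nfkbiz encodes IκB-ζ, a nuclear member of the IκB family that works as a cofactor at secondary NF-κB target genes. It lies on chromosome 16 from 55811375 to 55838899 on the minus strand. Its level was 154, 145 and 132 normalized counts with β1-WT-GFP and 48.9, 31.8 and 39 with β1-K794Q-GFP. The 3 values of each group lay close together and the groups were far apart, with the lowest β1-WT-GFP culture at 132 and the highest β1-K794Q-GFP culture at 48.9. The means were 144 ± 11.1 and 39.9 ± 8.6 (SD, n = 3 each), a 3.60-fold lower level and -1.85 as log2 fold change (edgeR's F-test, standard error 0.21, adjusted p = 0.0474, lower in 3 of 3 cultures). Leaving out 1 culture at a time gave log2 fold changes from -2.02 to -1.70, and Nfkbiz stayed past both thresholds. Its adjusted p was at most 0.05 in 1 of these 6 fits, that without β1-K794Q-GFP culture B (0.0362), and ranged up to 0.323 without β1-WT-GFP culture B. It was also above 0.05 with the culture letter as a block (0.266), with β1-WT-GFP cultures A and B taken as 1 sample (0.298), with a mean of at least 1 CPM as filter (0.0608, with 11667 genes tested) and with the regional level taken out (0.0554). The genes around Nfkbiz were level between the groups: the running median of 25 neighbouring tested genes was -0.02, 0.06 and 0.09 for β1-K794Q-GFP, as log2 ratios against the β1-WT-GFP mean.

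Nfkbia encodes IκBα, the inhibitor that masks the nuclear localization signal of NF-κB dimers and is resynthesized as their early target. It had 171, 156 and 125 normalized counts with β1-WT-GFP and 96.7, 107 and 87 with β1-K794Q-GFP. Each β1-K794Q-GFP culture lay below each β1-WT-GFP culture, but the difference was less than 2-fold. On chromosome 12 (55489410 to 55492647), Nfkbia had a log2 fold change of -0.64 (standard error 0.19, unadjusted p = 0.0129, adjusted p = 0.292 from edgeR's test), from means of 151 ± 23.4 and 96.9 ± 9.98 (SD, n = 3 each). Tnip1 encodes ABIN-1, a ubiquitin-binding partner of the deubiquitinase A20, and had 113, 88.2 and 60.7 normalized counts with β1-WT-GFP and 43.2, 32.7 and 60.0 with β1-K794Q-GFP. The groups were separated by a narrow gap, between 60.7 in β1-WT-GFP culture C and 60.0 in β1-K794Q-GFP culture C. The log2 fold change of Tnip1 was -0.94 (standard error 0.32, unadjusted p = 0.0232, adjusted p = 0.364 from edgeR's test), just under 2-fold. Tnip1 passed both thresholds without β1-K794Q-GFP culture C (-1.20) and without β1-WT-GFP culture C (-1.13). Birc3, which encodes the ubiquitin ligase cIAP2, stood at 42.9, 46.6 and 21 with β1-WT-GFP against 19.2, 17.1 and 22.6 with β1-K794Q-GFP. Here β1-WT-GFP culture C, at 21, fell inside the range of β1-K794Q-GFP cells. Birc3 had a log2 fold change of -0.91 (standard error 0.33, unadjusted p = 0.0323, adjusted p = 0.415 from edgeR's test). It likewise reached both thresholds only without β1-K794Q-GFP culture C (-1.02) or without β1-WT-GFP culture C (-1.18).

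Nfkbie, the gene of IκBε, had 66.7, 54.8 and 12.4 normalized counts with β1-WT-GFP and 8.76, 7.01 and 29 with β1-K794Q-GFP. The C culture of each group lay on the side of the other group. At a log2 fold change of -1.58 (standard error 0.78), Nfkbie missed the threshold for p (0.0886) and met it without β1-K794Q-GFP culture C (-2.5) and without β1-WT-GFP culture C (-2.01). For Tnfaip3, the gene of A20, which removes activating ubiquitin chains from NF-κB signalling proteins, the values were 54.4, 48.4 and 113 with β1-WT-GFP and 18.9, 72 and 38.1 with β1-K794Q-GFP. The groups overlapped, and the log2 fold change of -0.74 (standard error 0.55) became -1.34 and passed both thresholds without β1-K794Q-GFP culture B. Tnfaip2, a TNF-induced gene of endothelial cells, had 114, 129 and 256 normalized counts with β1-WT-GFP and 94.5, 222 and 118 with β1-K794Q-GFP. Culture C of the first and culture B of the second were the highest of the 6. On chromosome 12 (111442469 to 111455018), its log2 fold change was -0.20 (standard error 0.44, unadjusted p = 0.671, adjusted p = 0.936 from edgeR's test), with 0.27 without β1-WT-GFP culture C and 0.03 without β1-K794Q-GFP culture A. Traf1, an adaptor of TNF receptors, was too low for the filter, with 3, 4 and 21 counts for β1-WT-GFP and 2, 1 and 2 for β1-K794Q-GFP.

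**Figure D2:**
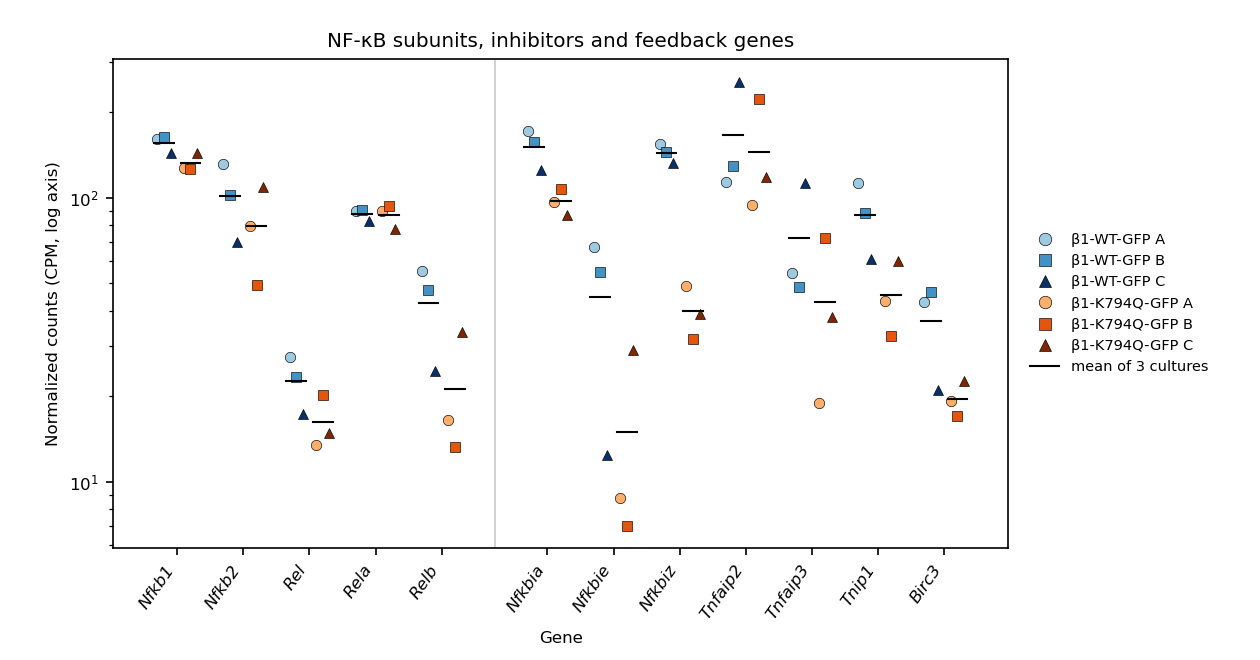
Normalized counts (CPM, log axis) of the NF-κB subunits (left of the grey line) and of the inhibitors and feedback genes (right), one point per culture and a bar at the mean of each group. The β1-K794Q-GFP points of Nfkbiz lie between 31.8 and 48.9, below the β1-WT-GFP points between 132 and 154, while Rela lies between 77.8 and 93.4 in all 6 cultures.

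The 5 subunits had a median ratio of the highest to the lowest culture of 2.04, against 2.03 over all tested genes. Rela encodes p65, the transactivating subunit of the classical dimer, and had 89.8, 90.2 and 83 normalized counts with β1-WT-GFP and 90.0, 93.4 and 77.8 with β1-K794Q-GFP. The groups overlapped and the highest culture was 1.20 times the lowest. Rela lies on chromosome 19 (5637483 to 5648130) and had a log2 fold change of -0.01 (standard error 0.15, unadjusted p = 0.948, adjusted p = 0.991 from edgeR's test). Nfkb1, which encodes p105 and its product p50, had 161, 163 and 143 with β1-WT-GFP and 127, 126 and 143 with β1-K794Q-GFP. The β1-K794Q-GFP cultures all lay below the others, with a gap of under 1 normalized count between the C cultures, and the log2 fold change was -0.24 (standard error 0.15, unadjusted p = 0.176). Rel, the gene of c-Rel, was the subunit of lowest level per kb of exon, and had 27.5, 23.4 and 17.3 with β1-WT-GFP and 13.5, 20.1 and 14.9 with β1-K794Q-GFP, with overlapping groups, at a log2 fold change of -0.49 (standard error 0.27). Nfkb2 and Relb encode p100 with its product p52 and RelB, which form the dimer of the alternative pathway. Nfkb2 had 131, 102 and 69.6 normalized counts with β1-WT-GFP and 79.7, 49.3 and 109 with β1-K794Q-GFP, and Relb had 55.3, 47.4 and 24.5 and 16.5, 13.2 and 33.7. In both genes β1-WT-GFP culture C was the lowest of its group and β1-K794Q-GFP culture C the highest of its own, so that the groups overlapped. Nfkb2 showed a log2 fold change of -0.35 (standard error 0.36) against -1.0 (standard error 0.46, unadjusted p = 0.0693) for Relb, and that of Relb passed both thresholds without β1-K794Q-GFP culture C (-1.51) and without β1-WT-GFP culture C (-1.27). Psd lies across Nfkb2 on the other strand and had between 3 and 32 counts; whether reads of the overlap were lost in counting was not tested.

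Promoter sequences came from the RefSeq table for GRCm38.p6, which gives 250 bases before and 50 after the start of a gene. Of the 41 genes, 29 matched an entry by symbol. The kB consensus, the textbook motif of 10 bases bound by NF-κB dimers, was searched on both strands, overlapping matches included, and found in 15 of the 29 genes, against 9.55% of all genes with an entry (8.46% of 32851 entries). The genes were named for being part of the NF-κB response, so that the share describes the choice, and a match is a description of the letters only. Csf3, Cd40, Tlr4, Relb, Vcam1, Nfkbiz, Cxcl16, Nfkb1, Ccl2, Cxcl5, Ccl7 and Ccl5 had no entry. The promoters printed are those of Nfkbia, Tnip1 and Birc3, the genes with an unadjusted p of at most 0.05 that had an entry, of the further inhibitor Nfkbie, and of the neighbouring chemokine genes Cxcl1 and Cxcl2, a pair with like matches and unlike levels; all were chosen after their values had been seen. Each is written 5′ to 3′ on the strand of its gene, with matches to the kB consensus in capitals.
Nfkbia (chr12:55492598-55492897, minus strand): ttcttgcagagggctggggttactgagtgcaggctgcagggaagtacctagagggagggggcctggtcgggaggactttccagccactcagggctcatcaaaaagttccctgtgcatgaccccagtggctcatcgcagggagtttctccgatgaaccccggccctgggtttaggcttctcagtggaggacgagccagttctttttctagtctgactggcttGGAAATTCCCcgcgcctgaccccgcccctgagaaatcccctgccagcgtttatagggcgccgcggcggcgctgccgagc
Nfkbie (chr17:45555450-45555749, plus strand): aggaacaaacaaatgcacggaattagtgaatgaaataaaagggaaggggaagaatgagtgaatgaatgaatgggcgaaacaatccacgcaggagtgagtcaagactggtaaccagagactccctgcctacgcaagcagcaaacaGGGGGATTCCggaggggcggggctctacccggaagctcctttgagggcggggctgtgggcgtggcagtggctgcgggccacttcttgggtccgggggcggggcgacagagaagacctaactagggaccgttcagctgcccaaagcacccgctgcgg
Tnip1 (chr11:54962891-54963190, minus strand): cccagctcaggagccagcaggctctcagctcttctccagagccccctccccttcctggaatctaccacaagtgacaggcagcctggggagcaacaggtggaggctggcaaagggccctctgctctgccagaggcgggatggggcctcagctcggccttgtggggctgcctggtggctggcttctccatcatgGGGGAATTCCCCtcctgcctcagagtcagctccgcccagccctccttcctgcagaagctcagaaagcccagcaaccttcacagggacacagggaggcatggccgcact
Birc3 (chr9:7873121-7873420, minus strand): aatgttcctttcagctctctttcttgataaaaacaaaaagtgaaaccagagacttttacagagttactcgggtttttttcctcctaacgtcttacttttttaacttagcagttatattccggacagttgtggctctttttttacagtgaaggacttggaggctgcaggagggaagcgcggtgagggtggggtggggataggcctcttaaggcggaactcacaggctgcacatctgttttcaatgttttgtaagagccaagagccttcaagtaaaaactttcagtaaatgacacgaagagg
Cxcl1 (chr5:90890995-90891294, plus strand): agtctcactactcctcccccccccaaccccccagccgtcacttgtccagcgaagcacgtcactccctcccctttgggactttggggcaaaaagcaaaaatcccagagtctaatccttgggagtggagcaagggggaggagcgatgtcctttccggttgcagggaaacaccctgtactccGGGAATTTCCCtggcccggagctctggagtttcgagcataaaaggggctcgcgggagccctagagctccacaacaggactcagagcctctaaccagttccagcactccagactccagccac
Cxcl2 (chr5:90903649-90903948, plus strand): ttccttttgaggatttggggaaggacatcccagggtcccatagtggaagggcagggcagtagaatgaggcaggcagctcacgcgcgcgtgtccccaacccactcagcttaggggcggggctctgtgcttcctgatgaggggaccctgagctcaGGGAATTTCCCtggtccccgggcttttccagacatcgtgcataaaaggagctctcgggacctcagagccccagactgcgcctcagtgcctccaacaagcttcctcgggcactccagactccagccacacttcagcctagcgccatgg
The match GGAAATTCCC of Nfkbia began 29 bases before the start of the gene, and the match GGGGGATTCC of Nfkbie 106 bases before it. In Tnip1, 3 overlapping matches began 58, 57 and 56 bases before the start. Birc3 had no match in this window. Cxcl1 and Cxcl2 held the same pair of overlapping matches, GGGAATTTCC and GGAATTTCCC, beginning 71 and 70 bases before the start in Cxcl1 and 97 and 96 bases in Cxcl2. Further matches lay in the windows of Nfkb2, Rel, Tnfaip2, Tnfaip3, Tlr2, Tlr3, Il6, Csf1, Lif and Ccl9.

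Among the chemokine ligands 7 of 10 were tested and none passed both thresholds or had an unadjusted p of at most 0.05 in edgeR's test. Ccl2, the monocyte chemoattractant MCP-1, had the highest level per kb of exon of the 31 tested genes. Its normalized counts were 149, 157 and 106 with β1-WT-GFP and 264, 94.2 and 87.3 with β1-K794Q-GFP. β1-K794Q-GFP culture A was the highest, and B and C of the same group were the lowest of the 6. On chromosome 11 (82035571 to 82037453), Ccl2 had a log2 fold change of 0.11 (standard error 0.47, unadjusted p = 0.816, adjusted p = 0.97 from edgeR's test), and -0.60 without β1-K794Q-GFP culture A. Its neighbour Ccl7, the related chemoattractant MCP-3, was lower per kb of exon, with 2.51 CPM per kb against 126, and had 1.49, 1.4 and 1.53 normalized counts with β1-WT-GFP and 2.7, 0.395 and 4.56 with β1-K794Q-GFP. The log2 fold change of Ccl7 was 0.79 (standard error 0.78), with 1.30 and a pass of both thresholds without β1-K794Q-GFP culture B, but 0.07 with culture C left out. Ccl5, or RANTES, had 6.39, 6.1 and 2.86 normalized counts with β1-WT-GFP and 7.89, 1.09 and 1.46 with β1-K794Q-GFP. Culture A of the β1-K794Q-GFP cells was again the highest, and without it the log2 fold change moved from -0.55 (standard error 0.82) to -1.99, past both thresholds. The level of the genes around Ccl2, Ccl7 and Ccl5 was lower in β1-K794Q-GFP culture B, where the running median of 25 neighbouring tested genes was -0.76 at Ccl2 and Ccl7 and -0.79 at Ccl5, again as log2 ratios against the β1-WT-GFP mean. After the regional level had been removed from each culture the log2 fold changes were 0.23, 0.70 and -0.44, none past both thresholds.

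Cxcl1, a ligand of the neutrophil receptor CXCR2, had 17.6, 13.7 and 33.8 normalized counts with β1-WT-GFP and 17.6, 6.91 and 14.2 with β1-K794Q-GFP. The groups overlapped, at a log2 fold change of -0.75 (standard error 0.48, unadjusted p = 0.163). Cxcl2, whose promoter holds the same pair of kB matches, had at most 0.200 normalized counts in any culture, under the limit that 0 counts allow. Cxcl12, or SDF-1, the ligand of CXCR4 that attracts stem cells and lymphocytes, had the widest swing of these ligands apart from Cxcl16 and Cx3cl1. It had 5.86, 6.1 and 767 normalized counts with β1-WT-GFP and 9.53, 43.7 and 176 with β1-K794Q-GFP. A single culture, β1-WT-GFP culture C, carried nearly all the signal of its group, and the β1-K794Q-GFP cultures spread over more than a factor of 10. Cxcl12 lies on chromosome 6 (117168535 to 117181367), and its log2 fold change was -1.77 (standard error 1.95, unadjusted p = 0.399, adjusted p = 0.857 from edgeR's test). Without β1-WT-GFP culture C it turned to 3.68 and passed both thresholds in the upward direction, with an adjusted p above 0.05. The β1-WT-GFP cultures left in that fit, A and B, were much more alike than other pairs within a group.

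Cxcl16 and Cx3cl1 encode the chemokines that are made as membrane-anchored proteins and can hold leukocytes directly. Cxcl16 had 26.3, 28.4 and 21.1 normalized counts with β1-WT-GFP and 1.73, 0.0987 and 32.2 with β1-K794Q-GFP. Its β1-WT-GFP cultures were alike, whereas β1-K794Q-GFP culture C lay above them and culture B had 1 count. It had a log2 fold change of -1.15 (standard error 1.43), which was -4.76 and past both thresholds without β1-K794Q-GFP culture C. Zmynd15 lies across Cxcl16 on the other strand and had 132, 107 and 53 counts for β1-WT-GFP and 4, 0 and 118 counts for β1-K794Q-GFP, so that both genes were low in the same cultures. Whether the counting used strand is not given in the sources used here, and reads of the pair cannot be told apart without it. Cx3cl1, or fractalkine, had 2.27, 2.1 and 9.61 normalized counts with β1-WT-GFP and 2.02, 0 and 15.5 with β1-K794Q-GFP. Both C cultures were high, β1-K794Q-GFP culture B had 0 counts, and the log2 fold change of 0.32 (standard error 1.5) became -2.19 without β1-K794Q-GFP culture C. Ccl9 and Cxcl5 had at most 1 count in any culture.

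Of the 8 cytokines and growth factors 2 were tested. Csf1, the growth factor of macrophages, had 201, 188 and 275 normalized counts with β1-WT-GFP and 97.2, 34.8 and 222 with β1-K794Q-GFP. Cultures A and B of the β1-K794Q-GFP cells lay below the β1-WT-GFP cells and culture C among them. Csf1 lies on chromosome 3 (107741048 to 107760469), and its log2 fold change was -0.91 (standard error 0.62, unadjusted p = 0.193, adjusted p = 0.728 from edgeR's test), and -1.74 and past both thresholds without β1-K794Q-GFP culture C. Il6, the gene of the cytokine interleukin-6, had 3.67, 3.6 and 6.69 with β1-WT-GFP and 3.85, 27.2 and 9.72 with β1-K794Q-GFP, the high value being that of culture B. β1-K794Q-GFP culture A was level with those of β1-WT-GFP. The log2 fold change of Il6 was 1.54 (standard error 0.72, unadjusted p = 0.0742), and it was 1.98 and past both thresholds without β1-K794Q-GFP culture A and 0.54 without culture B. Tnf had 0 counts in all 6 cultures, which allows up to 0.300 CPM in the shallowest. Il1a, Csf3 and Lif had at most 3 counts in any culture and Il33 at most 4. Csf2 had 13 counts in β1-WT-GFP culture C and at most 1 elsewhere.

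**Figure D3:**
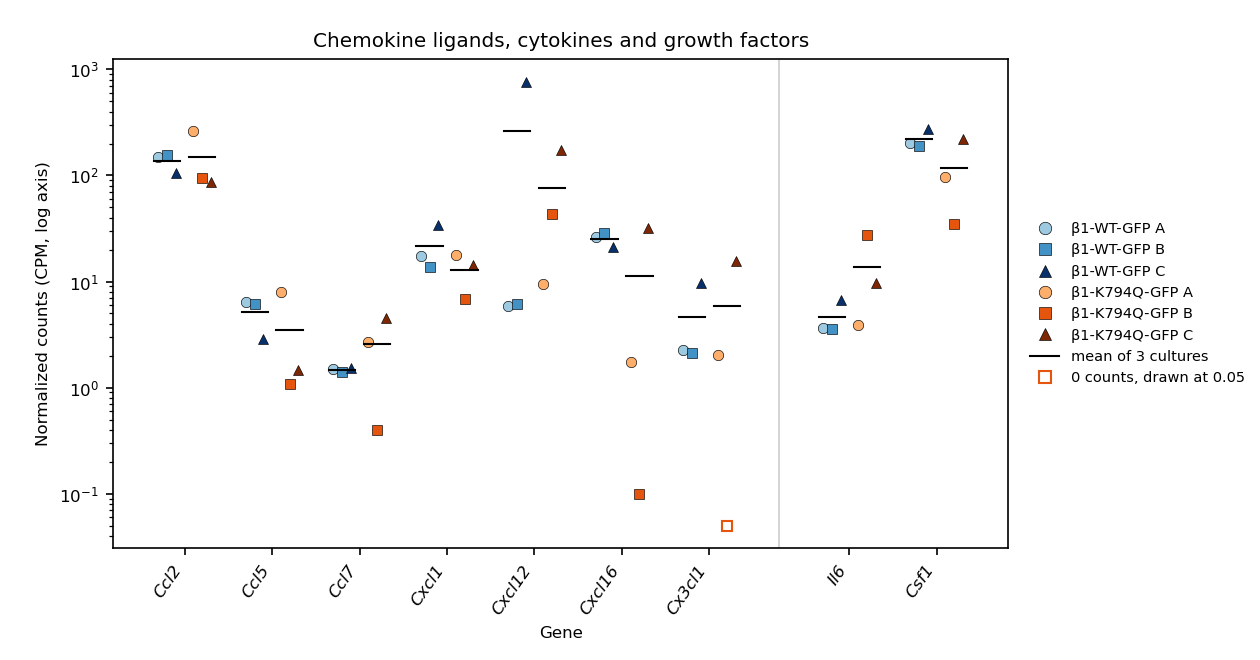
Normalized counts (CPM, log axis) of the 7 tested chemokine ligands (left of the grey line) and of Il6 and Csf1 (right), one point per culture and a bar at the mean of each group; the open square marks the culture with 0 counts. Cxcl12 reaches 767 in β1-WT-GFP culture C against 5.86 and 6.10 in cultures A and B, and Cxcl16 has 0.0987 in β1-K794Q-GFP culture B.

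The adhesion receptors were all tested and 0 of the 4 passed both thresholds. Vcam1 encodes the ligand of Integrin-α4β1 on lymphocytes and monocytes, and had 47.4, 46.2 and 207 normalized counts with β1-WT-GFP and 53, 2.57 and 164 with β1-K794Q-GFP. Culture C was the highest of each group and β1-K794Q-GFP culture B stood far below the rest. The log2 fold change was -0.45 (standard error 1.26, unadjusted p = 0.73), 0.66 without β1-WT-GFP culture C and 0.11 without β1-K794Q-GFP culture B. Icam1, the ligand of the β2 integrins of leukocytes, showed the reverse in the same culture: it had 2.71, 3.4 and 3.55 with β1-WT-GFP and 1.35, 30.5 and 3.44 with β1-K794Q-GFP. The log2 fold change of Icam1, 1.86 (standard error 1.09), rested on β1-K794Q-GFP culture B and was -0.42 without it; without culture A it was 2.38 and past both thresholds. Sele and Selp encode E-selectin and P-selectin, on which leukocytes roll, and neighbour each other on chromosome 1. Sele had 49.9, 49.3 and 108 normalized counts with β1-WT-GFP and 28.4, 21.7 and 94.5 with β1-K794Q-GFP, and Selp had 12.3, 19.8 and 112 and 82.3, 75.8 and 32. Culture C was the highest of the β1-WT-GFP cells in both genes, while among β1-K794Q-GFP cells it was the highest for Sele and the lowest for Selp, so that the neighbours did not move together. Their log2 fold changes were -0.52 (standard error 0.63) and 0.39 (standard error 0.86). Sele passed both thresholds without β1-K794Q-GFP culture C (-1.46) and Selp, in the other direction, without β1-WT-GFP culture C (1.99). The genes around Sele were lower in β1-K794Q-GFP cells, with a running median of -0.44, -0.29 and -0.58 in cultures A, B and C, and after removal of the regional level Sele had 0.01 and Selp 0.68.

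Among the receptors Tlr4, the receptor of bacterial lipopolysaccharide, was nearly level over the cultures, with 119.6, 137 and 125 normalized counts with β1-WT-GFP and 144, 168 and 109 with β1-K794Q-GFP. On chromosome 4 (66827584 to 66930284), Tlr4 had a log2 fold change of 0.14 (standard error 0.20, unadjusted p = 0.517, adjusted p = 0.899 from edgeR's test). Tlr3, the endosomal receptor of double-stranded RNA, had 173, 201 and 37 with β1-WT-GFP and 257, 109 and 111 with β1-K794Q-GFP. The lowest value was that of β1-WT-GFP culture C and the highest that of β1-K794Q-GFP culture A. Tlr3 lies on chromosome 8 (45395665 to 45411080), and its log2 fold change of 0.22 (standard error 0.66, unadjusted p = 0.753, adjusted p = 0.958 from edgeR's test) was -0.22 without the former and -0.31 without the latter. Tlr2, the receptor of bacterial lipoproteins, had 43.8, 52.3 and 21 and 23.1, 26.5 and 36.4 normalized counts for β1-WT-GFP and for β1-K794Q-GFP, at a log2 fold change of -0.44 (standard error 0.37). Cd40, the TNF family receptor through which T cells activate endothelium, had 8.92, 9.1 and 4.87 with β1-WT-GFP and 2.5, 28.8 and 18.8 with β1-K794Q-GFP, where culture A lay below and cultures B and C above all β1-WT-GFP cultures. Its log2 fold change of 1.13 (standard error 0.80) became 1.64 and passed both thresholds without β1-K794Q-GFP culture A, and 0.50 without culture B.

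Ikbke encodes IKKε, a kinase of the IKK family, and had 6.56, 7.2 and 4.6 normalized counts with β1-WT-GFP and 17.2, 2.76 and 18.1 with β1-K794Q-GFP. Within the β1-K794Q-GFP group culture B was the lowest of all 6 and cultures A and C were the highest. Ikbke had a log2 fold change of 1.06 (standard error 0.67, unadjusted p = 0.164), and 1.54 and past both thresholds without β1-K794Q-GFP culture B. Ptgs2, the gene of the prostaglandin synthase COX-2, had 8.22, 16.4 and 315 with β1-WT-GFP and 123, 28.6 and 10.1 with β1-K794Q-GFP. It was high in β1-WT-GFP culture C and β1-K794Q-GFP culture A, and the log2 fold change of -1.07 (standard error 1.5) turned to 2.14 without the first of these. Ikbke and Ptgs2 also lie on chromosome 1, where the running median of the neighbouring genes with β1-K794Q-GFP was -0.52, -0.66 and -0.52 at Ikbke and -0.57, -0.88 and -0.59 at Ptgs2. With the regional level taken out, Ikbke had a log2 fold change of 1.59 and passed both thresholds, and Ptgs2 had -0.34.

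**Figure D4:**
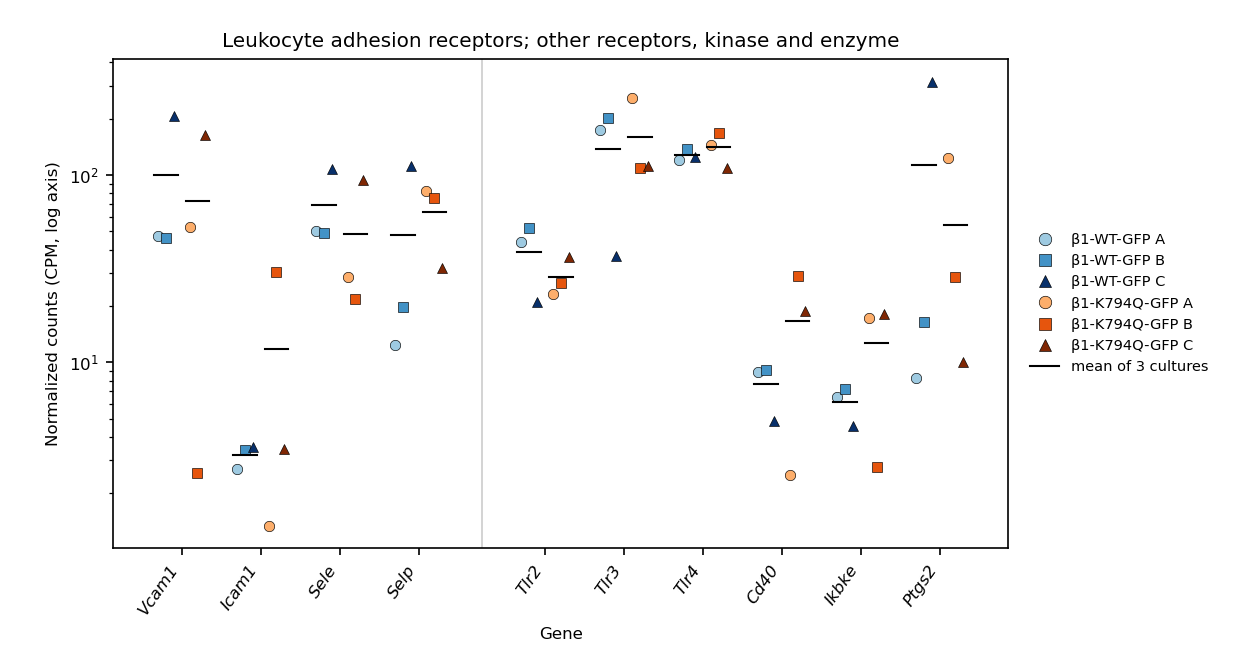
Normalized counts (CPM, log axis) of the 4 adhesion receptors (left of the grey line) and of the other receptors, the kinase and the enzyme (right), one point per culture and a bar at the mean of each group. Vcam1 has 2.57 and Icam1 30.5 in β1-K794Q-GFP culture B, and Ptgs2 reaches 315 in β1-WT-GFP culture C.

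Per kb of exon, the order of the mean level over the 6 cultures was led by Ccl2 with 126 CPM per kb, followed by Nfkbia with 76.9, Csf1 with 32.1, Tnfaip2 with 31.2, Rela and Tlr3 with 28.4 each, Tlr4 with 24.1, Cxcl12 with 20.5 and Sele with 20.1. Neighbours in this order overlapped in their ranges over the cultures, apart from Nfkbia and Csf1. Nfkbiz stood at 28.6 CPM per kb with β1-WT-GFP and 7.95 with β1-K794Q-GFP.

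The spread between cultures of a group was wide in these genes. Of the 31 tested genes, 0 were at least 2-fold apart when A was compared with B in the β1-WT-GFP group (0.422% of all tested genes), 14 when A was compared with C (22.6%) and 12 for B with C (21.3%). The same comparisons in the β1-K794Q-GFP group gave 16 for A with B (16.3%), 16 for A with C (7.43%) and 15 for B with C (21.2%). The highest culture was a median of 5.47 times the lowest over the 31 genes without Cx3cl1, and 2.03 times over all tested genes. Cx3cl1 has no such ratio, as its lowest culture had 0 counts. Of the 31 genes, 16 had their lowest value in β1-K794Q-GFP culture B, where 22.2% of all tested genes had theirs, and 9 had their highest value in β1-WT-GFP culture C (26.0%). These are descriptions, and no test of a difference from other genes was made. Which genes pass both thresholds depended on the culture left out. These passes rest on an unadjusted p. Of the 31 genes, only Nfkbiz had an adjusted p of at most 0.05 in these fits, and only without β1-K794Q-GFP culture B. Without β1-WT-GFP culture C there were 7 (8.38% of all tested genes), with Cxcl12 and Selp higher and Birc3, Nfkbie, Nfkbiz, Relb and Tnip1 lower. Without β1-K794Q-GFP culture C there were 8 (5.52%), all lower: Birc3, Csf1, Cxcl16, Nfkbie, Nfkbiz, Relb, Sele and Tnip1. Without β1-K794Q-GFP culture A there were 5 (4.53%), with Cd40, Icam1 and Il6 higher and Ccl5 and Nfkbiz lower, and without culture B there were 4 (7.95%), with Ccl7 and Ikbke higher and Nfkbiz and Tnfaip3 lower. Without β1-WT-GFP culture A (4.45%) or B (4.21%), Nfkbiz alone remained.

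**Figure D5:**
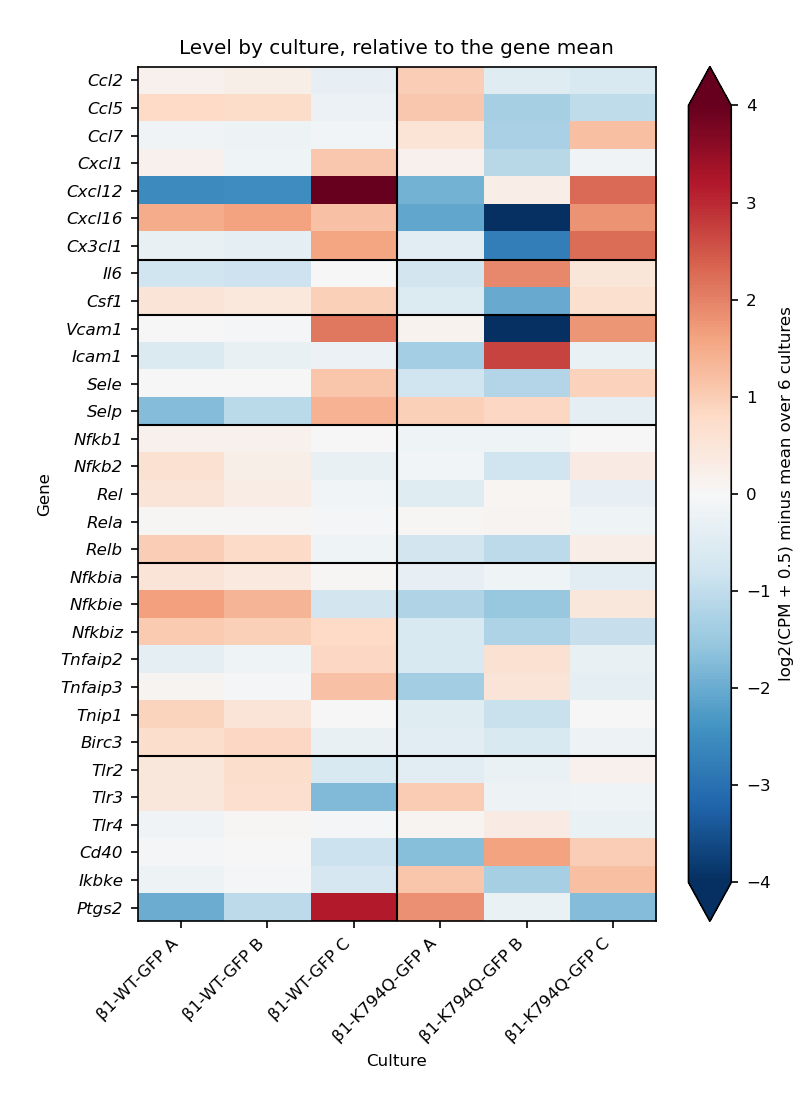
Level of the 31 tested genes (rows, grouped by role) in the 6 cultures (columns), as log2(CPM + 0.5) minus the gene's mean over the cultures; colours beyond 4 in size are drawn at the end of the scale. The row of Rela is pale, those of Cxcl12, Cxcl16, Cx3cl1, Vcam1 and Ptgs2 change between cultures of the same group, and Nfkbiz differs between the groups.

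A list of 108 other genes of the pathway had 70 tested genes, of which 5 passed both thresholds, 3 higher and 2 lower, against 5.19% of all tested genes. An adjusted p of at most 0.05 was found in 0 of the 70 by edgeR's test and by DESeq2; at an unadjusted p of at most 0.05 there were 7 in edgeR's test (10.0%, against 10.2% of all tested genes). The median log2 fold change was -0.06. Ripk2, the kinase downstream of NOD receptors, had 86.9, 86.8 and 16.9 normalized counts with β1-WT-GFP and 22.9, 16.7 and 24.3 with β1-K794Q-GFP, a log2 fold change of -1.57 (standard error 0.60) with β1-WT-GFP culture C inside the range of the other group. Pf4, a chemokine of platelets, was low, with 2.97, 4.1 and 6.2 and 0.867, 2.37 and 2.06, and had -1.32 (standard error 0.51). Traf5, an adaptor of TNF family receptors, had 1.49, 2.3 and 2.23 and 3.95, 6.91 and 2.67 normalized counts and a log2 fold change of 1.16 (standard error 0.47). These 3 genes had adjusted p values between 0.438 and 0.473 from edgeR's test. Podxl, a sialomucin that can carry ligands of selectins, had 219.8, 267 and 561 and 617, 875 and 608 normalized counts, the groups without overlap and β1-K794Q-GFP the higher, and a log2 fold change of 1.00 (standard error 0.41). Irak3, an inhibitory kinase homologue of Toll-like receptor signalling, had 0.262, 0.90 and 0.975 and 0.963, 14.1 and 2.49 normalized counts. Its log2 fold change of 3.01 (standard error 1.10) rested on β1-K794Q-GFP culture B and was 1.27 and no longer past both thresholds without it. Leaving out a culture took each of these 5 genes below a threshold at least once in the 6 fits, in which between 1 and 8 genes of the list passed. With the regional level taken out, Irak3 (2.58), Pf4 (-1.16) and Traf5 (1.07) were no longer past both thresholds, and Ripk2 and Podxl were.

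By role, 0 of 11 tested receptors, 3 of 27 adaptors and kinases (Irak3 and Traf5 higher, Ripk2 lower), 0 of 15 further inhibitors and ubiquitin enzymes, 1 of 7 other chemokines and cytokines (Pf4, lower) and 1 of 10 other adhesion genes (Podxl, higher) passed both thresholds. The highest levels per kb among the receptors were those of Tnfrsf1a, the main TNF receptor, with 299, 323 and 202 normalized counts with β1-WT-GFP and 219.6, 348 and 254 with β1-K794Q-GFP, and of Ltbr, the lymphotoxin receptor, with 107, 92.3 and 81.6 and 75.5, 84.6 and 83.2. In both receptors the groups overlapped. Among the kinases they were those of Tbk1, an IKK-related kinase, with 98.1, 97.4 and 84.5 and 231, 113 and 213, and of Map3k7, or TAK1, which activates the IKK complex, with 161, 170.4 and 156 and 208, 193 and 221. In these kinases the lowest β1-K794Q-GFP culture exceeded the highest β1-WT-GFP culture, but the log2 fold change of Tbk1 was 0.99, just under 2-fold, and that of Map3k7 was 0.35 (standard error 0.16). Tbk1 passed both thresholds without β1-WT-GFP culture A (1.03) or B (1.02) and without β1-K794Q-GFP culture B (1.26, adjusted p = 0.0456), and had 0.01 with the regional level taken out. Among the inhibitors and ubiquitin enzymes Cflar, the caspase-8 regulator c-FLIP, had 427, 471 and 398 and 463, 691 and 351 normalized counts, and Rnf11, a ubiquitin ligase of the A20 complex, had 145, 163 and 149 and 142, 179 and 116, with overlapping groups in both. Cxcl10, a chemokine of the interferon response, with 34, 34.8 and 4.74 and 19.3, 2.17 and 9.98, and Il15, with 22.7, 17.7 and 4.53 and 15.8, 4.84 and 14.5, led the other chemokines and cytokines, and both were low in β1-WT-GFP culture C and β1-K794Q-GFP culture B. Cd34, a sialomucin ligand of L-selectin, with 1897, 2223 and 831 and 1390.1, 2885 and 1208, and Jam2, a junctional receptor for leukocyte Integrin-α4β1, with 782, 1035 and 513 and 1072, 583 and 950.0, led the adhesion genes, and their groups overlapped. Il1b, Ccl3, Cxcl3 and Ppbp had 0 counts in all cultures.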

How the data were processed

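Reads of rRNA-depleted total RNA of 6 cultures were processed by the authors, who deposited raw counts per gene symbol, not normalized and not pooled. The submitters' processing notes name bcl2fastq 2.20.0, STAR 2.7.4a, HTSeq 0.9.1, edgeR 3.38.4 and build mm10 (GRCm38), without roles; the annotation and the strand setting of the counting are not given in the sources used here. The 6 count columns were assigned to cultures by their names, and 0 further columns of per-sample values were left aside. The totals ranged from 9589826 to 15287191 counts.

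Under R 4.3.3, filterByExpr of edgeR 4.0.16 kept 11608 genes, TMM normalization gave the CPM values, and the groups were compared with estimateDisp, glmQLFit and glmQLFTest (two-sided, common dispersion 0.186), the model and test that the study names. Standard errors were derived from the fold change and its F statistic, as the absolute log2 value over the root of F. A pair of cultures was called at least 2-fold apart on log2(CPM + 0.5) where its mean was at least 1 CPM. The scripts were first tested on simulated counts. β1-WT-GFP cultures A and B were much more alike than other pairs within a group, with 49 genes at least 2-fold apart against 862 to 2625, and had a ratio of chi-square to its degrees of freedom of 9.97, above counting error, which does not show that they were grown apart; the samples were not merged, following the labels.

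Gene positions and exon lengths are those of GENCODE M21, joined through the symbol, 21777 of 23420 directly and 1262 through a synonym. Alternatives were no filter or a mean of at least 1 CPM as filter, RLE normalization, DESeq2 1.42.0, the likelihood ratio test, the culture letter as a block, β1-WT-GFP cultures A and B summed as 1 sample, the running median of 25 neighbouring tested genes taken into the offset, and leaving out each culture. Each of the 31 tested genes was described in every culture. Full statistics were given for those past both thresholds, for the 8 others of highest level per kb, and for Tnip1 and Birc3. Of the other pathway genes those past both thresholds and the 2 highest of each list per kb were named. The 41 genes and the lists were chosen with earlier results of these data known. Tables and figures were made in Python with pandas and matplotlib.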

Additional observations from a re-analysis of the deposited data

How the results depend on the processing

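Nfkbiz kept its direction and its place past the thresholds under all 14 alternatives run, with a log2 fold change between -2.02 and -1.70. The number of the 41 genes past both thresholds was 1, and 3 with DESeq2 and with the likelihood ratio test (Il6 higher, Nfkbie and Nfkbiz lower), 2 with the regional level taken out, and 1 to 8 with a culture left out. The number with an adjusted p of at most 0.05 was 1, and 0 with a mean of at least 1 CPM as filter (11667 genes tested, against 11608), with the culture letter as a block, with β1-WT-GFP cultures A and B as 1 sample and with the regional level taken out, where Nfkbiz had 0.0608, 0.266, 0.298 and 0.0554, and 0 to 1 with a culture left out. The number without overlap was 4, and 5 with no filter (Traf1 added; 14.2% of all tested genes), 3 with the 1 CPM filter (without Nfkb1; 16.6%) and 4 to 12 with a culture left out (19.9% to 38.6%), where fewer cultures can overlap. Over all genes 603 of 11608 passed both thresholds. Of the same 11608, 695 passed with DESeq2, 727 with the likelihood ratio test, 505 with the regional level taken out and 571 with the block. With β1-WT-GFP cultures A and B as 1 sample 512 of 11867 passed. With no filter, where more genes were tested, 916 of 15974 passed, and with a culture left out 501 to 992. Of the other pathway genes 5 of 70 passed. Of the same number 3 passed with the block, 1 with β1-WT-GFP cultures A and B as 1 sample (Tbk1, none of the 5) and 2 with the regional level taken out. With a culture left out 1 to 8 passed. Apart from fewer samples or more genes tested, the cause of these moves was not tested.

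The culture letters are shared by the groups. Between samples of the same letter, the correlation over genes of their deviations from the group means was 0.109 for A, 0.055 for B and 0.102 for C. β1-K794Q-GFP cultures B and C correlated best with the β1-WT-GFP culture of their own letter. β1-K794Q-GFP culture A correlated best, by a small margin, with β1-WT-GFP culture B (0.113). These correlations were small, and the letters were not taken to pair the samples. With the letter as a block 571 genes passed both thresholds and Nfkbiz, at -1.87, remained the 1 gene of the 41.

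Fitted log2 fold changes close to 0 or resting on 1 culture changed sign, in genes that did not pass both thresholds with all cultures included. With the block they became -0.068 for Ccl2, 0.48 for Cxcl12, -0.79 for Cx3cl1 and 0.42 for Ptgs2. With β1-WT-GFP cultures A and B as 1 sample they became -0.012 for Cx3cl1, -0.016 for Selp and 0.0064 for Rela, and with the regional level taken out 0.011 for Sele and 0.092 for Rela. With a culture left out, 11 of the 31 genes changed sign: the values ranged from -0.60 to 0.38 for Ccl2, -3.29 to 3.68 for Cxcl12, -2.19 to 1.43 for Cx3cl1, -1.85 to 0.66 for Vcam1, -0.42 to 2.38 for Icam1, -0.063 to 1.99 for Selp, -0.058 to 0.065 for Rela, -0.64 to 0.27 for Tnfaip2, -0.31 to 0.60 for Tlr3, -0.0041 to 0.29 for Tlr4 and -2.57 to 2.14 for Ptgs2. The cause was not tested.

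At 3 cultures a group with this spread, a fold change of a gene such as Cxcl12 or Ptgs2 was not resolved, with standard errors of 1.95 and 1.5, whereas Nfkbiz and the subunits Rela and Nfkb1 had standard errors of 0.21, 0.15 and 0.15. Of the 10 untested genes 7 had at most 3 counts in any culture. With no filter 9 of the 10 were fitted by edgeR and 0 passed both thresholds. Traf1, whose groups did not overlap, had a log2 fold change of -2.15 (unadjusted p = 0.0530 from edgeR's test), and Csf2 had -3.09.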
